A study of Rattus norvegicus with 17 samples.

Results

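The acid-sensing ion channels Asic1, Asic2 and Asic3 were followed in single neurons of the rat dorsal root ganglion (DRG), the sensory ganglion beside the spinal cord. The 3 genes were taken by name from the 32883 gene rows of the count tables, and all 3 rows were present. The choosing rule holds no measured value of the channels, but it was written with earlier results of these data known. Neurons came from the bilateral L4 and L5 ganglia of male Sprague-Dawley (SD) rats that were adult and untreated, and single fluorescently labelled neurons were picked by mouth pipette. All batches form 1 group with no treated arm. The protocols describe plating for 15 min or 72 h, with 5 or more rats at each time. They do not tie a time or an animal to a batch, so batches are the units of the tests. With batch as a term, p-values measure how the differences between gates vary over batches. What was compared are kinds of neuron, set by gates on genes other than the channels.

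Acid-sensing ion channels are sodium channels of the DEG/ENaC family that open when protons accumulate outside the cell. Each channel is a trimer that can mix subunits. Asic1 is widely expressed in neurons. Asic3 is known for its abundance in sensory neurons, including those that supply muscle and heart, where it passes acid-evoked currents. Asic2 changes the pH sensitivity of channels it joins and makes channels of low proton sensitivity on its own.

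The start regions of Asic1 and Asic3 are shown because both genes had high levels in the same gate of neurons. The sequences are RefSeq's for the GRCr8 assembly and run from 250 bases before to 50 bases after the gene's annotated start, 5′ to 3′ on the gene's strand. The files were counted on another build, so no coordinate of theirs is mixed with these. Asic1 lay at chr7:132678457-132678756 on the plus strand and Asic3 at chr4:11657318-11657617 on the minus strand. Capitals mark the GC box GGGCGG in Asic1 and the RUNX core TGTGGT in Asic3.
Asic1: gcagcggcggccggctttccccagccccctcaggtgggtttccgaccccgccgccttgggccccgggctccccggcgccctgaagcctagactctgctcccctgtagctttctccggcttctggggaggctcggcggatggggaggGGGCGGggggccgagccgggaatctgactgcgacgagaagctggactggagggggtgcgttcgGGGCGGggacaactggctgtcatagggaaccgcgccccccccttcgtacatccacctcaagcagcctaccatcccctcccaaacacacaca
Asic3: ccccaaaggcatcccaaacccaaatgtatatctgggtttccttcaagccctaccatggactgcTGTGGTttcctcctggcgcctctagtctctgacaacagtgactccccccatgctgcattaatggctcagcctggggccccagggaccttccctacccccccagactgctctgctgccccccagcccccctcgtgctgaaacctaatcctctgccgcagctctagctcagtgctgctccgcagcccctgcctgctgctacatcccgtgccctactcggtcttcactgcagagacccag
The Asic1 region held 2 GC boxes and had a GC content of 69.7%, and the Asic3 region held 1 RUNX core and had a GC content of 60.7%, against a median of 51.7% over all 33469 promoters of the table. On both strands, TGTGGT stood in 17.3% and GGGCGG in 33.1% of those promoters. The other motifs searched, on both strands, were CCAAT (in 37.5% of promoters) and TATAAA (14.2%), whose letters do not occur in these windows. A match is a description and not evidence of binding. All 3 genes matched the table, in which Asic2 has 2 starts. In the annotation no other RefSeq gene overlapped Asic1 or Asic3, whereas 10 overlapped Asic2.

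The counts are unique molecular identifiers (UMIs) at the 3′ ends of transcripts. Of 17 labelled batches, batch 21 repeated the cells of batch 20 and was left out, and the other 16 shared 0 cell names. Of their 1040 cells, 967 passed a minimum of 2000 genes. The median kept cell held 139374 UMIs from 8302 genes, and batch totals ran from 3812280 to 26065847 UMIs. The neuronal genes Tubb3, Uchl1 and Prph had UMIs in all 967 cells, and Avil, a sensory neuron gene, in 96.5%. A cell passed a gate when the geometric mean of the gate's genes was at least 20 CPM, that is UMIs scaled to the cell's total as parts per 1 × 10⁶. Cells that passed 1 gate alone gave enough batches for a test in Clmp (172 cells), Sst+Nppb (109 cells), Ntsr1+Chrna3 (71 cells) and Gzmbl3+Lpar3 (57 cells). In all 459 cells passed exactly 1 gate, 264 passed several and 244 passed none. Placing the 264 cells in the gate where they stood highest gave 723 cells and allowed Trpm8 (47 cells), Nmu+Lad1 (38 cells) and Th (24 cells) to be tested too, while Pvalb+Vsnl1 (9 cells, 1 sum) was only described.

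Gates are called by their genes, since the labels give no cell types. With cells of several gates placed, Clmp cells averaged 1837 CPM of Calca, the peptide CGRP. Sst+Nppb cells had 54.0 CPM of Osmr and 4.40 CPM of Il31ra, both itch-related receptors. Trpm8 cells had 35.5 CPM of Foxp2, and Th cells had the highest summed level of 6 markers of C-low-threshold mechanoreceptors, with a median of 420 CPM, against 185 CPM in Nmu+Lad1 and 51.5 CPM in Clmp. That list holds Th itself at 333 CPM, the gene that set the gate, so this rank is no independent mark of these cells. Piezo2 averaged 97.4 CPM in Th cells, below the 160 CPM of Nmu+Lad1. Tafa4 averaged 2.64 CPM in Th cells, and Slc17a8 and P2ry1 were at 0. Nmu+Lad1 cells had 160 CPM of the touch channel Piezo2, 298 CPM of the receptor Ret and 39.9 CPM of Zfp521. From the same marker lists, Slc17a8 and Mrgprd were at 0 in these cells. Single markers named here describe a gate and do not show what sets it apart from the others.

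Asic3 had 25298 UMIs in all kept cells and Asic1 had 11158. Asic3 had a UMI in 726 of 967 cells (75.1%, exact binomial 95% interval 72.2 to 77.8), with at most 420 UMIs in 1 cell. Asic1 had a UMI in 663 cells (68.6%, interval 65.5 to 71.5), with at most 216. Asic2 had 44 UMIs in 19 cells (1.96%, interval 1.19 to 3.05) from 10 batches, with at most 5. These intervals cover counting error only. In all kept cells pooled, the levels of the 3 channels were 120 CPM for Asic3, 53.0 CPM for Asic1 and 0.209 CPM for Asic2, which depend on where each transcript's 3′ end lies and do not rank the proteins.

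Asic3 was highest in Clmp neurons. UMIs were summed over the cells of 1 gate in 1 batch, where there were at least 3, and the 14 Clmp sums of cells in that gate alone ran from 65.3 CPM in batch 28-1 through a median of 335 CPM to 453 CPM in batch 32. The 10 Ntsr1+Chrna3 sums ran from 19.4 through 47.2 to 249 CPM, the 14 Sst+Nppb sums from 0 through 24.3 to 165 CPM, and the 10 Gzmbl3+Lpar3 sums from 1.89 through 9.85 to 38.7 CPM. Every Clmp sum lay above every Gzmbl3+Lpar3 sum, while the low end of the Clmp sums overlapped the high end of Sst+Nppb and Ntsr1+Chrna3. Within batches, the Clmp sum exceeded the mean of the batch's other gates in 14 of 14 batches. The means were 304 ± 117 CPM in Clmp, 89.8 ± 85.1 CPM in Ntsr1+Chrna3, 40.8 ± 43.5 CPM in Sst+Nppb and 14.2 ± 12.1 CPM in Gzmbl3+Lpar3 (SD over those batches).

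**Figure D1:**
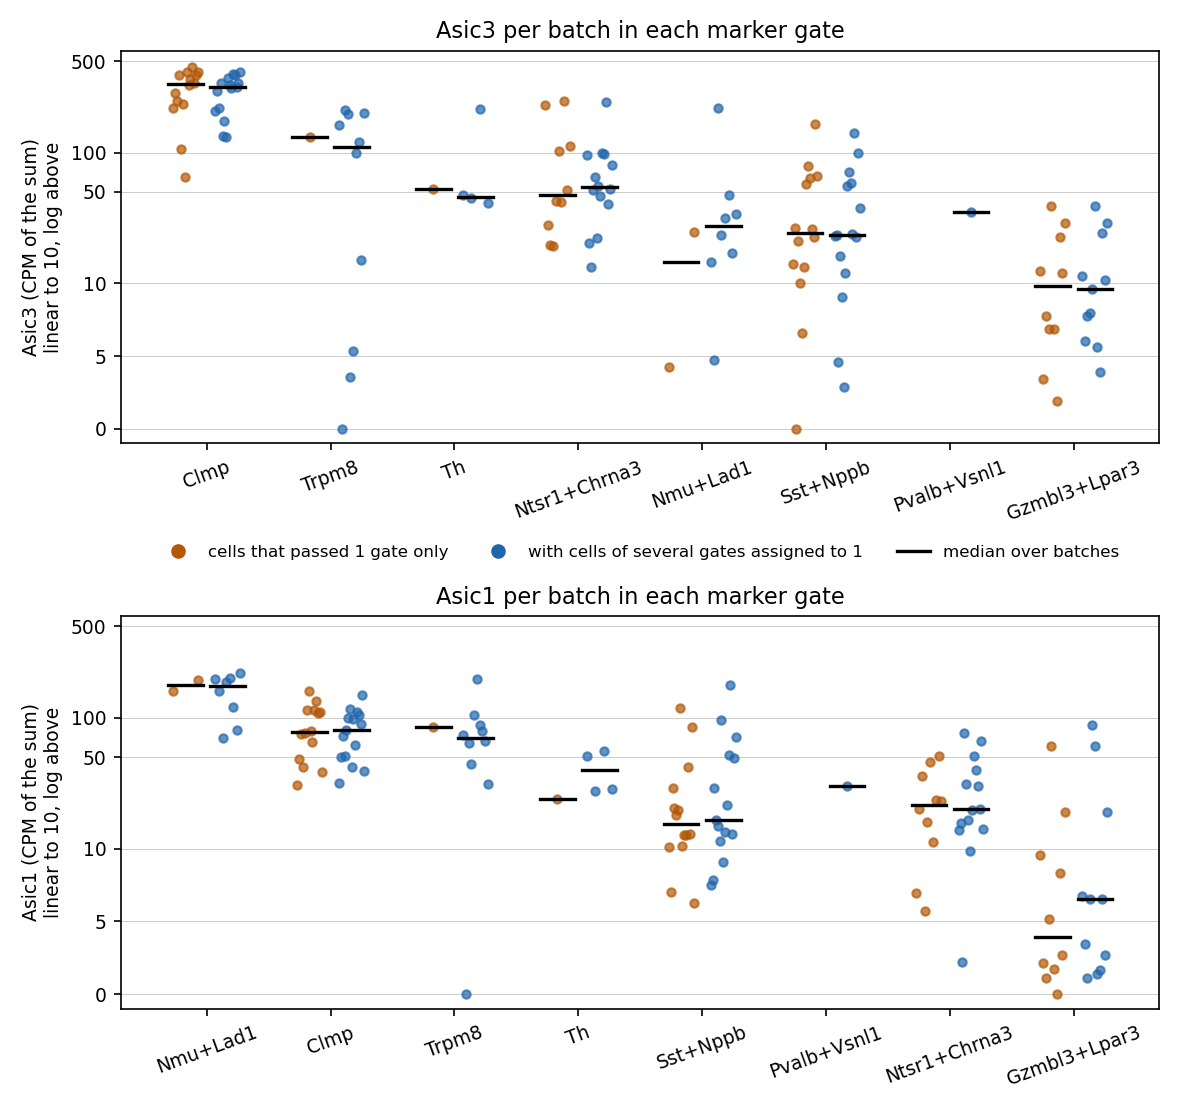
Asic3 (top) and Asic1 (bottom) in CPM, on an axis that is linear to 10 and logarithmic above, for each gate, where each point is the summed cells of 1 batch and the line is the median (orange, cells in 1 gate alone; blue, with cells of several gates placed in 1). With placement the Clmp sums of Asic3 sit between 132 and 409 CPM, and the Nmu+Lad1 sums of Asic1 between 69.6 and 220 CPM.

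edgeR's quasi-likelihood test with batch as a term compared each gate with the mean of the other gates, and p-values were adjusted by the Benjamini-Hochberg method over all 10173 genes tested. Asic3 was higher in Clmp by 3.15 ± 0.29 (log2, SE; adjusted p = 1.2e-10), and Asic1 was higher there by 2.24 ± 0.29 (adjusted p = 2.0e-07). Thus 2 of the 2 channels tested were called higher in Clmp, where 7.87% of all genes tested were (7.45% were lower and 15.3% changed in either direction). Both were lower in Gzmbl3+Lpar3, Asic3 by a log2 difference of -2.51 ± 0.44 (adjusted p = 9.8e-05) and Asic1 by -1.88 ± 0.42 (adjusted p = 0.00176), where 7.07% of genes were called lower, 7.54% higher and 14.6% in either direction. The Asic1 call in Gzmbl3+Lpar3 was lost with cells thinned to 30000 UMIs (-1.29, adjusted p = 0.116 by edgeR) and with at least 5 cells per sum (-1.48, adjusted p = 0.114). The mean of the other gates includes Clmp, the highest of these gates in both channels. Between pairs of gates, Asic1 in Gzmbl3+Lpar3 was called lower than in Clmp only (19.6% of genes called between these gates). Sst+Nppb over Gzmbl3+Lpar3 was 1.47 (adjusted p = 0.0516 by edgeR, 7.35% called). Ntsr1+Chrna3 over Gzmbl3+Lpar3 was 1.07 (adjusted p = 0.202, 5.88% called).

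In Sst+Nppb and Ntsr1+Chrna3 neither channel passed the threshold of 0.05 against the mean of the other gates. In Sst+Nppb the log2 differences were -0.75 ± 0.37 for Asic3 (adjusted p = 0.302 by edgeR) and 0.09 ± 0.34 for Asic1 (adjusted p = 0.949). In Ntsr1+Chrna3 they were 0.11 ± 0.36 for Asic3 (adjusted p = 0.944) and -0.45 ± 0.37 for Asic1 (adjusted p = 0.655). Of all genes, 4.88% were called in Sst+Nppb and 2.31% in Ntsr1+Chrna3.

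With cells of several gates placed, all 7 gates could be ordered for Asic3. The 15 Clmp sums averaged 291 ± 95.1 CPM, ahead of Trpm8 at 102 ± 89.4 CPM (10 sums), Th at 87.1 ± 85.6 CPM (4 sums) and Ntsr1+Chrna3 at 70.0 ± 57.0 CPM (14 sums). Nmu+Lad1 followed at 49.3 ± 70.6 CPM (8 sums), Sst+Nppb at 40.0 ± 39.0 CPM (15 sums) and Gzmbl3+Lpar3 at 14.1 ± 11.4 CPM (11 sums), and the 1 Pvalb+Vsnl1 sum held 34.9 CPM. The places of Th and Nmu+Lad1 rest on 1 batch each. Th held 215 CPM in batch 33 and at most 47.1 CPM in its 3 other batches, and its median of 46.0 CPM lay below the 54.1 CPM of Ntsr1+Chrna3. Nmu+Lad1 held 221 CPM in batch 29 and at most 47.7 CPM in the others, and the fit with batch as a term put it below Sst+Nppb by a log2 difference of -0.30 (adjusted p = 0.710 by edgeR). Only the top and the bottom steps of this order passed the test between neighbours. Asic3 was higher in Clmp than in Trpm8 by 1.48 ± 0.40 (log2, SE; adjusted p = 0.0326 by edgeR, with 1.85% of 12617 genes called between these gates). It was higher in Sst+Nppb than in Gzmbl3+Lpar3 by 1.42 ± 0.45 (adjusted p = 0.0324, with 9.42% called). Without placement the top step, Clmp over Ntsr1+Chrna3, was called at 2.28 ± 0.41 (adjusted p = 0.00013, 7.07% called), and the bottom step, Sst+Nppb over Gzmbl3+Lpar3, was not (1.32, adjusted p = 0.100, 7.35% called). The neighbours between them did not pass, which includes Trpm8 against Th (0.81, adjusted p = 0.614) and Ntsr1+Chrna3 against Nmu+Lad1 (1.01, adjusted p = 0.176).

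Over all pairs of gates, Asic3 was called different in 12 of 21 pairs, where 8.27% of all tests of a gene in a pair were called, and in 4 of 6 pairs without placement, where 8.76% were. Asic3 was higher in Clmp than in each of the 6 other gates tested (5.69% of all such tests) and lower in Gzmbl3+Lpar3 than in 5 of 6 (5.65%). Against the mean of the other gates Asic3 was higher in Clmp by 2.85 ± 0.25 (log2, SE; adjusted p = 3.8e-14 by edgeR) and in Trpm8 by 1.12 ± 0.33 (adjusted p = 0.0322), and lower in Gzmbl3+Lpar3 by a difference of -2.40 ± 0.41 (adjusted p = 1.4e-05). Of 12617 genes, 13.7% were called in Clmp (8.38% higher, 5.32% lower), 5.64% in Trpm8 (3.2% higher) and 14.7% in Gzmbl3+Lpar3 (6.11% lower). The remaining differences were -0.74 ± 0.31 in Sst+Nppb (adjusted p = 0.108), -1.09 ± 0.41 in Nmu+Lad1 (adjusted p = 0.0625), 0.18 ± 0.53 in Th (adjusted p = 0.925) and 0.09 ± 0.28 in Ntsr1+Chrna3 (adjusted p = 0.948). In these gates 11% of genes were called in Sst+Nppb, 13.2% in Nmu+Lad1, 0.182% in Th and 2.74% in Ntsr1+Chrna3.

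The Trpm8 gate, named for the menthol and cold channel, was split across batches. Its Asic3 sums were 98.6, 121, 163, 197, 200 and 213 CPM in batches 30, 31, 20, 26, 35 and 25, and 0, 3.53, 5.31 and 15.2 CPM in batches 24, 27, 28-1 and 34. No sum fell between 15.2 and 98.6 CPM, and each rests on 3 to 6 cells. The 0 of batch 24 stands against 454891 UMIs. Within batches the Trpm8 sum exceeded the mean of the other gates in 5 of 10. The call was lost without any 1 of batches 20, 25, 26, 31 or 35, with a log2 difference of 0.82 (adjusted p = 0.219 by edgeR) without batch 25, and also without the batch term, by DESeq2, after thinning, with at least 5 cells per sum and without the cells rich in glial RNA. With the gates cut at 50 CPM the difference was -0.032, on the other side of 0.

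**Figure D2:**
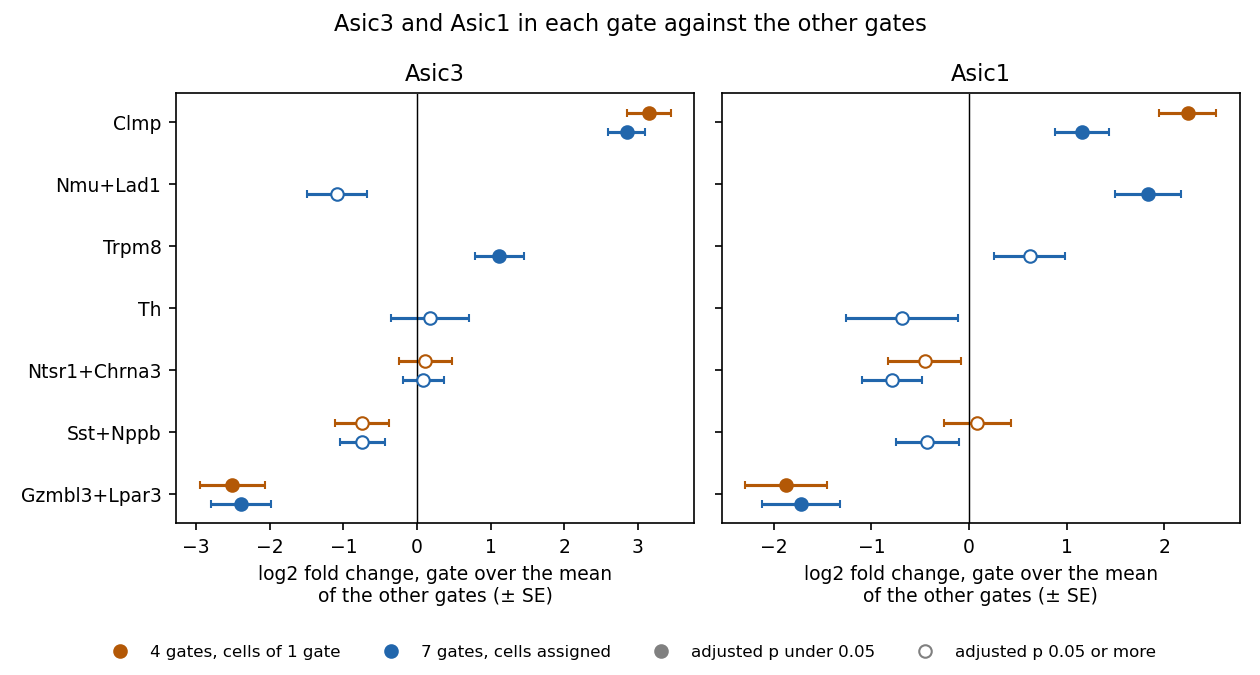
Log2 difference of Asic3 (left) and Asic1 (right) between each gate and the mean of the other gates, with its standard error, for cells in 1 gate alone (orange) and with cells of several gates placed (blue), filled where the adjusted p was under 0.05. Clmp stands at 3.15 and 2.85 for Asic3, and Nmu+Lad1 at 1.84 for Asic1.

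Asic1 was highest in Nmu+Lad1 neurons, which could be tested only with cells of several gates placed. The 8 sums were 69.6, 80.7, 122, 161, 187, 199, 203 and 220 CPM in batches 29, 34, 33, 26, 30, 25, 31 and 35. In each of those 8 batches the sum exceeded the mean of the batch's other gates. The Clmp sum did so in 11 of 15 batches and the Trpm8 sum in 4 of 10. Clmp averaged 80.2 ± 34.0 CPM (15 sums, 32.0 to 151), Trpm8 75.2 ± 52.2 CPM (10 sums, 0 to 197) and Th 40.9 ± 14.8 CPM (4 sums, 27.7 to 56.2). Sst+Nppb followed at 39.6 ± 46.9 CPM (15 sums, 7.51 to 179), Ntsr1+Chrna3 at 29.1 ± 22.1 CPM (14 sums, 2.23 to 76.7) and Gzmbl3+Lpar3 at 17.9 ± 28.8 CPM (11 sums, 1.11 to 87.5). The Nmu+Lad1 sums overlapped every one of these gates but Th, whose highest sum lay below the lowest Nmu+Lad1 sum.

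Against the mean of the other gates Asic1 was higher in Nmu+Lad1 by 1.84 ± 0.34 (log2, SE; adjusted p = 6.7e-05 by edgeR, with 7.47% of genes called higher) and in Clmp by 1.16 ± 0.28 (adjusted p = 0.00184, 8.38% called higher). It was lower in Gzmbl3+Lpar3 by a difference of -1.72 ± 0.40 (adjusted p = 0.00117, 6.11% called lower). The differences were 0.62 ± 0.36 in Trpm8 (adjusted p = 0.349), -0.68 ± 0.58 in Th (adjusted p = 0.633), -0.43 ± 0.32 in Sst+Nppb (adjusted p = 0.442) and -0.78 ± 0.31 in Ntsr1+Chrna3 (adjusted p = 0.182). With every cell thinned to 30000 UMIs the Clmp difference was 0.56 and was not called (adjusted p = 0.0843 by edgeR).

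No step between neighbours in the order of Asic1 levels passed the test with placement, and the first, Nmu+Lad1 over Clmp, was 0.58 ± 0.42 (log2, SE; adjusted p = 0.387 by edgeR). Nmu+Lad1 was above Clmp in 6 of the 8 batches that held both. In all, 7 of 21 pairs of gates were called for Asic1 (8.27% of such tests over all genes). Nmu+Lad1 was higher in Asic1 than 3 of 6 gates (5.04% over all genes), Clmp was higher than 3 of 6 (5.69%), and Gzmbl3+Lpar3 was lower than 3 of 6 (5.65%). Without placement Clmp over Sst+Nppb was called at 1.62 ± 0.38 (adjusted p = 0.0036, with 8.8% of genes called).

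In cells of 1 gate alone Asic1 averaged 85.9 ± 39.2 CPM in Clmp, 29.0 ± 33.0 CPM in Sst+Nppb, 24.0 ± 15.8 CPM in Ntsr1+Chrna3 and 11.01 ± 18.3 CPM in Gzmbl3+Lpar3. The Clmp sums ran from 30.9 through a median of 78.1 to 161 CPM and exceeded the mean of the batch's other gates in 13 of 14 batches. The Gzmbl3+Lpar3 sums ran from 0 through 3.89 to 60.4 CPM and exceeded it in 0 of 10 batches. The Clmp sums overlapped those of each of the 3 other gates. The 2 Nmu+Lad1 sums of cells in that gate alone held 161 and 195 CPM of Asic1 and 4.25 and 24.6 CPM of Asic3.

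Batches differed in how they placed the gates. In batch 20 the Asic3 sum of Ntsr1+Chrna3 cells was 230 CPM and that of Clmp cells 217 CPM, and in batch 32 they were 249 and 453 CPM, while the other 8 Ntsr1+Chrna3 sums lay at 113 CPM or below. Without batch 20 the Ntsr1+Chrna3 difference in Asic3 was -0.34, on the other side of 0. In Sst+Nppb the highest Asic3 sum was 165 CPM in batch 34, and the next was 78.5 CPM in batch 29. Batch 28-1, which had the fewest UMIs of all batches, held the lowest Asic3 of the Clmp sums (65.3 CPM) and the highest Asic1 (161 CPM), and its Sst+Nppb sum was the highest of that gate in Asic1 at 119 CPM. The part of depth in this was not tested. Leaving out any 1 batch kept the Clmp calls, with log2 differences of 3.00 to 3.31 for Asic3 and 2.06 to 2.44 for Asic1.

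The 244 cells that passed no gate were shallower, with a median of 36955 UMIs. At 30000 UMIs, 45.2% of the 135 such cells deep enough had an Asic3 UMI and 50.4% an Asic1 UMI, and 55 of the 244 (22.5%) held at least 100 CPM of Asic3. Asic3 was therefore also found outside the gates. The count at 100 CPM was not thinned, and kept cells went down to 4307 UMIs, where any Asic3 UMI puts a cell above 100 CPM. That count therefore cannot show how many of these cells had high Asic3. Shallow cells can also miss a gate, since its genes need a minimum of UMIs. Whether these cells were of the gated kinds was not tested.

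Nmu+Lad1 and Clmp neurons, both called higher in Asic1 with placement, differed in Asic3. Asic3 in Nmu+Lad1 was 4.72, 14.6, 17.0, 23.5, 31.7, 34.1 and 47.7 CPM in 7 batches and 221 CPM in batch 29, and it was below Clmp in 8 of 8 batches. Clmp exceeded Nmu+Lad1 by 3.37 ± 0.48 (log2, SE; adjusted p = 1.9e-07 by edgeR, with 15.4% of genes called between them). Batch 29 was the highest of the Nmu+Lad1 sums for Asic3 and the lowest for Asic1, and it rests on 4 cells. Without batch 29, Asic3 in Nmu+Lad1 passed the test against the mean of the other gates, at -1.73 (adjusted p = 0.00264).

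Single cells showed how these sums were made up. Of the Clmp cells with placement, 216 of 235 (91.9%) had an Asic3 UMI, 142 (60.4%) held at least 100 CPM, and the quartiles were 37.8, 198 and 410 CPM with a highest cell of 1372 CPM. Of the Nmu+Lad1 cells, 37 of 38 had an Asic1 UMI, 23 (60.5%) held at least 100 CPM of it, and the quartiles were 71.1, 126 and 188 CPM, while 2 of 38 (5.26%) held at least 100 CPM of Asic3. Trpm8 cells had Asic3 quartiles of 0, 9.99 and 130 CPM, with 13 of 47 (27.7%) at 100 CPM or more. High Asic3 was thus held by most Clmp cells and by a minority of Trpm8 cells.

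**Figure D3:**
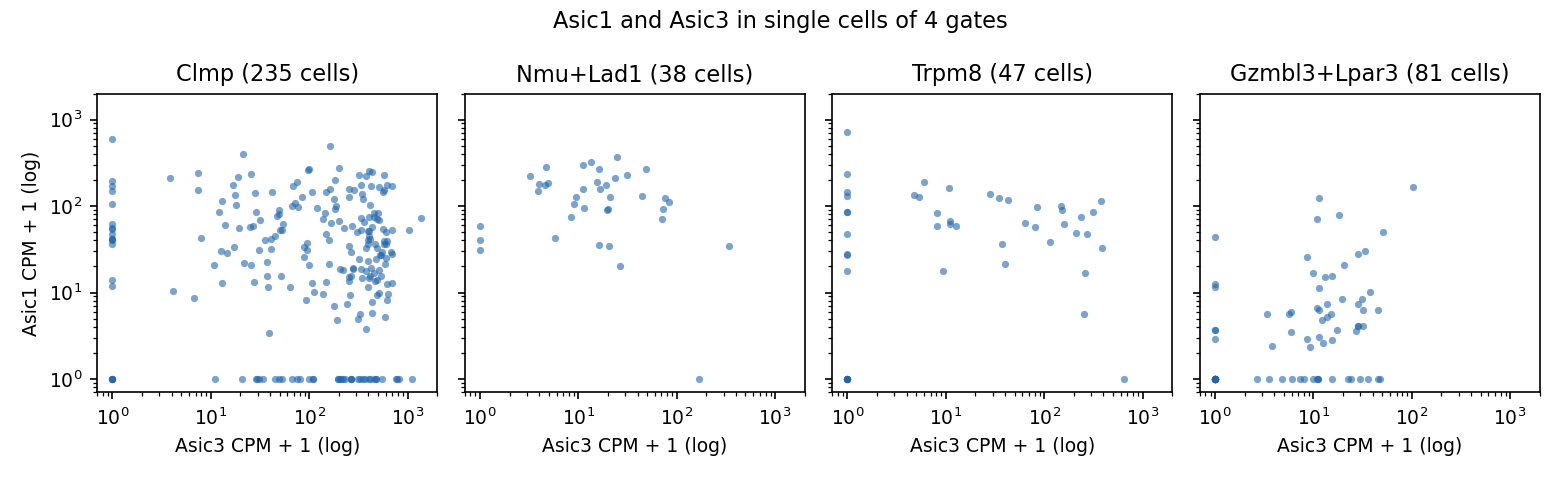
Asic1 (vertical) against Asic3 (horizontal) in single cells of 4 gates with cells of several gates placed, both as CPM + 1 on log axes, where each point is a cell. In Clmp 142 of 235 cells lie at or above 100 CPM of Asic3, and in Nmu+Lad1 23 of 38 lie at or above 100 CPM of Asic1.

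Median depth differed between gates, at 340248 UMIs in Nmu+Lad1, 293888 in Gzmbl3+Lpar3, 275996 in Ntsr1+Chrna3, 214200 in Th, 181536 in Clmp, 179850 in Trpm8 and 82968 in Sst+Nppb. Shares of cells with a UMI were therefore set at 30000 UMIs per cell, which leaves out shallower cells. Asic3 then had a UMI in 83.6% of 214 Clmp cells (interval 78.0 to 88.3), in 60.0% of 20 Th, 59.7% of 134 Ntsr1+Chrna3, 50.5% of 107 Sst+Nppb, 43.2% of 37 Nmu+Lad1, 42.9% of 42 Trpm8 and 15.8% of 76 Gzmbl3+Lpar3 cells. Asic1 had a UMI in 86.5% of 37 Nmu+Lad1 cells (interval 71.2 to 95.5), 76.2% of Trpm8, 15 of 20 Th, 59.3% of Clmp, 38.1% of Ntsr1+Chrna3, 31.8% of Sst+Nppb and 17.1% of Gzmbl3+Lpar3 cells. The gate with the lowest shares, Gzmbl3+Lpar3, was also among the deepest. Without thinning the Asic3 shares were 91.9% in Clmp and 70.4% in Gzmbl3+Lpar3 cells, and the Asic1 shares 97.4% in Nmu+Lad1 and 56.8% in Gzmbl3+Lpar3 cells. No kind of neuron here is known to lack either channel, so the share that free RNA gives was not measured.

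The 2 channels were not found in the same proportions in each gate. At 30000 UMIs both had a UMI in 47.7% of Clmp cells, Asic3 without Asic1 in 36.0%, Asic1 without Asic3 in 11.7% and neither in 4.67%. In Nmu+Lad1 cells both were found in 40.5%, Asic3 without Asic1 in 2.70% and Asic1 without Asic3 in 45.9%. In Trpm8 cells these shares were 35.7%, 7.14% and 40.5%. In Gzmbl3+Lpar3 cells neither channel was found in 72.4%. Across batch sums, the correlation of the 2 levels was taken on log2(CPM + 10) with each batch's mean taken out. It was 0.82 over the 48 sums of cells in 1 gate alone and 0.39 over the 77 sums with placement. Across cells at 30000 UMIs, with batches mixed, it was -0.12 in Clmp, -0.08 in Nmu+Lad1 and -0.06 in Trpm8. It was 0.02 in Th, 0.18 in Ntsr1+Chrna3, 0.24 in Sst+Nppb and 0.29 in Gzmbl3+Lpar3. With each batch's mean taken out, it was -0.14 in Clmp, -0.36 in Nmu+Lad1, -0.22 in Trpm8 and -0.29 in Th. In Ntsr1+Chrna3, Sst+Nppb and Gzmbl3+Lpar3 it was then 0.12, 0.13 and 0.24. Sums of 1 batch share a library and cells are no replicates of a gate, so these are descriptions.

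**Figure D4:**
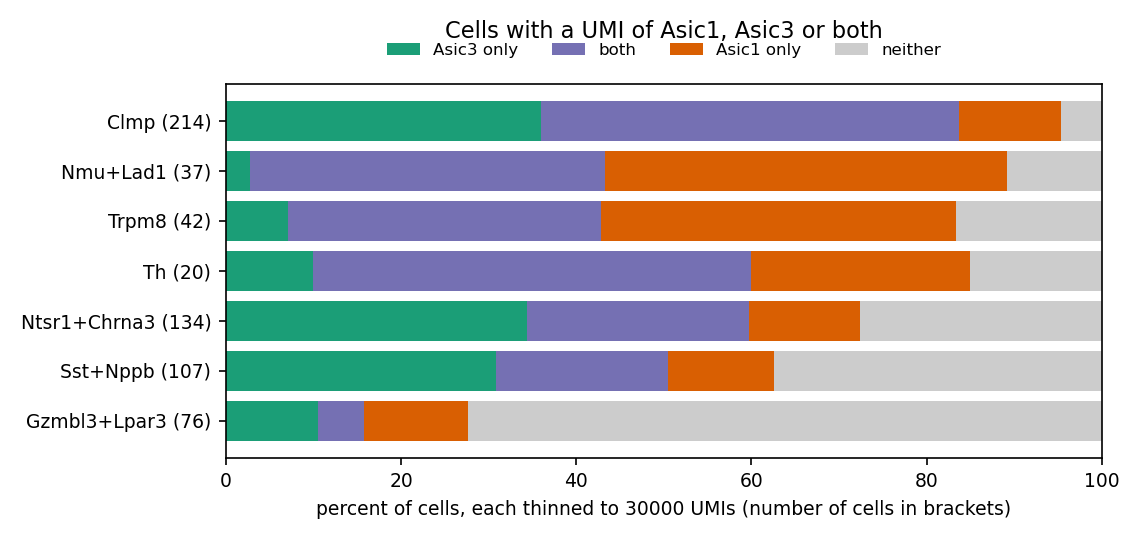
Share of cells, in percent, with a UMI of both channels, of Asic1 without Asic3, of Asic3 without Asic1 and of neither, in each gate at 30000 UMIs per cell. Asic3 without Asic1 makes up 36.0% in Clmp and 2.70% in Nmu+Lad1, and neither makes up 72.4% in Gzmbl3+Lpar3.

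Asic2 was close to the limit of what these counts can show. Of its 19 cells, 7 had 1 UMI. With placement, 8 were Ntsr1+Chrna3 cells, 5 Clmp cells, 1 each Gzmbl3+Lpar3, Nmu+Lad1 and Th cells, and 3 passed no gate. No UMI was found in the Sst+Nppb or Trpm8 cells, which at these depths does not show that the gene was silent. The highest cell, in Clmp, held 147 CPM. Among sums with placement the highest were 2.87 CPM in Th of batch 34, 2.38 CPM in Nmu+Lad1 of batch 31 and 2.26 CPM in Ntsr1+Chrna3 of batch 22, each from 3 or 4 UMIs. Asic2 did not pass the filter on low counts and was not tested between gates. Its row could also share reads with the genes that overlap it, since it is not stated whether strand was used in counting.

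The family's other members were likewise rare. Asic4, a subunit that passes no acid-evoked current by itself, had 28 UMIs in 11 cells (1.14%), 5 of them Ntsr1+Chrna3 cells with 15 UMIs. Asic5, a bile-acid sensitive relative, had none, which allows up to 0.0142 CPM (3 counts).

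By correlation of batch-centred log2(CPM + 10) over the 48 sums, the genes most like Asic3 were Cd9 and Slc5a7 (0.889 each), Ugt1a6 (0.874), Cck (0.871) and Phactr2 (0.870). Cd9 is a tetraspanin, Slc5a7 the choline transporter and Cck the peptide cholecystokinin. Those most like Asic1 were Arxes2 (0.844), Fam20c (0.841), Rit2 (0.838), Phactr2 (0.832) and Cck (0.829). Over the 77 sums with placement they included Ugt1a6 (0.822), Ifitm2 (0.797), Tmem59l (0.781) and Sytl3 (0.776) for Asic3, and Phactr2 (0.786), Fam20c (0.765), Plekha2 (0.740), Atp2b4 (0.735) and Mdh2 (0.731) for Asic1. Gate genes were left out. The genes most like Asic2, Spry4 (0.728) and Tgfb2 (0.700) first, rest on a handful of sums with a UMI.

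Other genes of proton sensing were set beside the channels in Clmp, the gate where Asic3 had its largest difference. Of 16 other proton sensors listed, 15 were in the counts and 9 were tested in cells of 1 gate alone, of which 4 were higher in Clmp and 1 lower (7.87% and 7.45% of all genes tested), with a median log2 difference of 0.96, against 0.03 over all genes tested. The potassium channels Kcnk3 (21.6 CPM in Clmp and 3.10 CPM in the other gates) and Kcnk2 (32.0 and 5.75 CPM) were among those higher there, by 3.04 ± 0.47 and 2.68 ± 0.45 (log2, SE). Their relative Kcnk1 was lower, at 3.75 CPM in Clmp and 20.0 CPM in the others (-2.28 ± 0.42). Trpv1, the capsaicin and heat channel, did not pass (0.96, adjusted p = 0.184), and with placement it did (1.06, adjusted p = 0.0493).

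Of 21 proteins known to bind or modulate the channels, 16 were tested, with 2 higher and 4 lower in Clmp and a median of -0.13, where 7.87% of all genes tested were higher and 7.45% lower. The 2 higher partner genes are thus close to the share over all genes. Stoml1, a stomatin relative that inhibits acid-evoked currents of channels with Asic1, averaged 142 CPM in Clmp and 105 CPM in the others (0.54 ± 0.10). Dlg4, the scaffold PSD-95, was higher by 1.44. With placement Dlg4 was not called (0.66, adjusted p = 0.220 by edgeR), at 7.75 CPM in Clmp and 6.68 CPM in the others. Among the lower ones were Magi1, a scaffold, at 21.9 CPM in Clmp and 69.6 CPM in the others (-1.57), and the actin linkers Actn4, at 121 and 182 CPM (-0.62), and Actn1 (-1.24).

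Of 22 pH regulators, 13 were tested and none was called in Clmp by edgeR, with 3 at an unadjusted p under 0.05, 2 called lower by DESeq2 and a median of 0.01. With placement, Slc4a2, an anion exchanger, was lower (-0.69). None of the 5 further DEG/ENaC genes passed the filter in cells of 1 gate alone.

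In Gzmbl3+Lpar3, where both channels were lower, 7.54% of all genes tested were called higher and 7.07% lower. Of 9 proton sensors tested 0 were higher and 3 lower, of 16 partner genes 4 were higher and 2 lower, and of 13 pH regulators 2 were higher and 0 lower, so the lower partner genes and the higher pH regulators were each within 2 genes of those shares. The genes named here and in Nmu+Lad1 were chosen after their values were seen. The monocarboxylate transporters Slc16a1 (201 CPM in Gzmbl3+Lpar3 and 87.7 CPM in the others, log2 difference 1.20) and Slc16a3 (90.8 and 27.0 CPM, 2.03) were the 2 higher pH regulators. In Nmu+Lad1, where Asic1 was highest, 4 of 14 pH regulators were higher and 0 lower, where 7.47% of all genes were called higher and 5.7% lower. Carbonic anhydrase Car2 averaged 98.1 CPM in Nmu+Lad1 and 24.1 CPM in the others (2.50 ± 0.44, log2, SE; adjusted p = 3.8e-05 by edgeR), and the others were the bicarbonate transporters Slc4a4 (1.47) and Slc4a8 (1.17) and Slc16a3 (1.34). Of the proton sensors, P2rx2 (1.91) and Kcnk1 (1.16) were higher there and Kcnk2 (-2.42) and Trpv1 (-1.87) lower. Kcnk1, Kcnk2 and Trpv1 had the opposite sign in Clmp, where each passed with placement. Each of these 2 gates is part of the mean the other is set against, so the opposite signs are not independent.

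The summed level of 9 glial genes had a median of 212 CPM in Clmp (165 to 413), 169 CPM in Sst+Nppb (58 to 590), 139 CPM in Ntsr1+Chrna3 (81 to 794) and 113 CPM in Gzmbl3+Lpar3 (52 to 247) over sums of cells in 1 gate alone. Among these 4 gates Clmp was the highest and Gzmbl3+Lpar3 the lowest in glial level, as in both channels. The gates Th, Nmu+Lad1 and Trpm8 had too few sums to test. Their glial medians were 338 CPM in Th (1 sum), 278 CPM in Nmu+Lad1 (2 sums) and 61.4 CPM in Trpm8 (1 sum). In that order they averaged 24.0, 178 and 84.5 CPM of Asic1, and 52.2, 14.4 and 131 CPM of Asic3. Nmu+Lad1 was thus above Clmp in both glial level and Asic1, and below it in Asic3. A link of glial RNA to either channel was not tested. Of the 9 genes Kcnj10 was at 0 in all but Sst+Nppb. Without the 54 cells above 500 CPM of glial RNA, Asic3 differed by 3.12 in Clmp and by -2.38 in Gzmbl3+Lpar3, and Asic1 by 2.25 and -1.88 (log2), and all 4 calls held. With placement the glial median was 284 CPM in Trpm8 and 285 CPM in Clmp, and without those cells Asic3 in Trpm8 differed by 0.86 (adjusted p = 0.141 by edgeR). The endothelial gene Cldn5 was at 0 in all gates.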

How the data were processed

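Single neurons were amplified with a modified Smart-seq2 that adds a barcode for the cell (8 nt) and a UMI (8 nt). The files the authors deposited hold UMI counts of genes in cells, checked here to be whole numbers. Per the submitters' processing notes, UMI-tools, STAR, featureCounts, Subread and SAMtools were used with Rnor_6.0. Their settings are not given in the sources used here. Of 17 labelled batches with 1080 cells, batch 21 held the counts and cell names of batch 20 and was not used.

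The members and lists, the gates included, were chosen with earlier results of these data known. Cells with at least 2000 genes were kept. Each gene of a paired gate needed 1 UMI and a single gate gene 2 UMIs. Cells of several gates were left out, or in the alternative placed in the gate where their level was highest relative to the median of cells passing that gate alone. No doublet caller was run, since cells were picked singly. CPM are UMIs divided by the total UMIs of the sum or cell, in the usual scale.

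Sums of at least 3 cells entered edgeR 4.0.16 (R 4.3.3; TMM normalization; genes kept by filterByExpr at min.count 10; the quasi-likelihood test on a design of gate plus batch) for gates with at least 3 batches, which gave 48 sums of 77941 to 7468385 UMIs and 10173 genes, and with placement 77 sums of 188234 to 8176107 UMIs and 12617 genes. p-values were adjusted by the Benjamini-Hochberg method over all genes, with a threshold of 0.05, and the SE is the size of the log2 fold change over the square root of F. The alternatives were DESeq2 1.42.0, DESeq2's size factors (RLE) in edgeR, no filter on low counts, no batch term, gates cut at 10 or 50 CPM, cells thinned to 30000 UMIs, at least 5 cells per sum, no cell above 500 CPM of 6 glial genes, and each batch left out, for which the dispersion trend of the full fit was kept. Named genes of the lists were up to 3 per direction and list with the smallest adjusted p in the gate where Asic3 differed most upward, and exceptions are named as such. Asic2 had no fold change, so its part of that rule named none. Some genes that the rules name are not reported here.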

Additional observations from a re-analysis of the deposited data

Results flagged for a closer look

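Of 10 combinations of channel and gate with 4 to 10 batches, 3 held a sum far from the others by Dixon's ratio. The ratio marks about 1 in 20 where values follow a normal curve. Whether these sums do was not tested, so that rate may not hold here. All 3 were the highest sum of their gate. Asic3 in Nmu+Lad1 stood at 221 CPM in batch 29, with the nearest of 8 batches at 47.7 CPM (4 cells, 219 UMIs). Asic3 in Th stood at 215 CPM in batch 33, with the nearest of 4 batches at 47.1 CPM (3 cells, 188 UMIs), and without it the log2 difference of Th was -0.79. Asic1 in Gzmbl3+Lpar3, in cells of that gate alone, stood at 60.4 CPM in batch 26, with the nearest of 10 batches at 19.0 CPM (5 cells, 64 UMIs).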

How the results depend on the processing

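Of 22 log2 differences of Asic1 and Asic3 against the other gates, 10 were called, and 510 of 554 recomputed values kept direction and side of the threshold. The calls of Asic3 in Clmp and in Gzmbl3+Lpar3 and of Asic1 in Nmu+Lad1 held wherever they could be fitted. In cells of 1 gate alone, no filter on low counts called Asic3 in Sst+Nppb (-0.78). At 30000 UMIs Asic1 in Gzmbl3+Lpar3 was not called (-1.29), nor with at least 5 cells per sum (-1.48). Differences near 0 turned sign: Asic1 in Ntsr1+Chrna3 at 10 CPM (0.0061), Asic1 in Sst+Nppb after thinning (-0.074) and with 5 cells (-0.072), and Asic3 in Ntsr1+Chrna3 with 5 cells (-0.059).

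With placement, no filter called Asic3 in Sst+Nppb (-0.74) and Nmu+Lad1 (-1.11) and Asic1 in Trpm8 (0.59) and Ntsr1+Chrna3 (-0.76). Asic3 in Trpm8 was not called without the batch term (0.80), by DESeq2 (0.96), after thinning (1.02), with 5 cells (0.93) or without glia-rich cells (0.86), and it turned to -0.032 with the gates at 50 CPM. DESeq2 called Asic3 in Nmu+Lad1 (-1.15), and 5 cells per sum called it in Sst+Nppb (-0.99). At 50 CPM Asic1 was called in Trpm8 (2.20) and Ntsr1+Chrna3 (-1.02). Asic3 turned sign at 10 CPM in Th (-0.17), at 50 CPM in Th (-0.42) and Nmu+Lad1 (0.30) and with 5 cells in Ntsr1+Chrna3 (-0.077), and Asic1 after thinning in Th (0.28). Thinning also ended the Asic1 call in Clmp (0.56). The cause was not tested. Th and Nmu+Lad1 could not be fitted with 5 cells per sum.

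With each batch left out in turn, Asic3 in Trpm8 ran from 0.82 to 1.25 and lost its call without batch 20 (1.03), 25 (0.82), 26 (0.97), 31 (1.10) or 35 (1.05). Asic3 in Nmu+Lad1 ran from -1.73 to -0.83 and was called without batch 29 (-1.73) or 32 (-1.13), and Asic3 in Sst+Nppb with placement ran from -1.10 to -0.55 and was called without batch 34 (-1.10). Differences that were not called turned sign for Asic3 in Ntsr1+Chrna3 without batch 20 (-0.34) or 32 (-0.052), with a range of -0.34 to 0.32, for the same with placement without batch 32 (-0.061 to 0.30), for Asic3 in Th without batch 33 (-0.79 to 0.61), and for Asic1 in Sst+Nppb without batch 24, 28-1, 28-3, 31 or 34 (-0.10 to 0.36). The other ranges were 3.00 to 3.31 for Asic3 and 2.06 to 2.44 for Asic1 in Clmp, and 1.70 to 1.95 for Asic1 in Nmu+Lad1.

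Genes called, over all genes, moved more. In cells of 1 gate alone Clmp had 1559 (776 after thinning, 2382 with gates at 50 CPM), Sst+Nppb 496 (145 after thinning, 848 at 50 CPM), Ntsr1+Chrna3 235 (106 at 10 CPM, 1452 at 50 CPM) and Gzmbl3+Lpar3 1486 (523 at 10 CPM, 2214 at 50 CPM). With placement Clmp had 1728 (968 after thinning), Sst+Nppb 1389 (725 after thinning), Trpm8 711 (240 after thinning), Th 23 (10 after thinning, 312 without a filter), Ntsr1+Chrna3 346 (899 at 50 CPM) and Nmu+Lad1 1661 (193 at 50 CPM). Leaving out 1 batch gave 5 to 78 in Th, 120 to 312 in Ntsr1+Chrna3 alone, 291 to 551 in Sst+Nppb alone, 416 to 931 in Trpm8 and 1100 to 1858 in Nmu+Lad1.
Gates of 1 batch were paired through the batch term of the fit. The fit without that term was among several that lost the Asic3 call in Trpm8. Depth limits Asic2, with 44 UMIs in all.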
